A study of Homo sapiens with 6 samples.

Results

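The fragments described here come from the 5' side of a transfer RNA (tRNA) whose first 5 bases are GCATG. They were taken from a table of 3443 tRNA-derived fragments (tRFs) by their identifiers, which are MINTbase licence plates that encode each sequence. The first group holds the 5' rows of 19 nt or more whose code begins with P4R8YP, which gave 9 rows. The second group holds the internal rows whose decoded sequence lies inside the longest of these 9 but not inside the longest 5' row of the related PNR8YP code, which gave 29 rows. Together they make 38 of the 3443 rows. The set was proposed because its summed counts were higher in the knockout, so every difference between knockout and wild-type given for its members is a description, without a p-value.

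The libraries were small RNA libraries of A375, an established human melanoma cell line. There were 3 libraries of wild-type cells kept in parallel without targeting and 3 libraries of cells with a CRISPR/Cas9 knockout of DUS1L, taken through selection of clones. How many clones the knockout libraries represent is not stated, and p-values measure only the spread between these libraries. Totals ran from 15742 to 32754 counts per library. Wild-type replicate 3 stood apart: across fragments, the r of its log2 scaled counts was 0.865 with replicate 1 and 0.861 with replicate 2, which had 0.944 between them.

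DUS1L is the enzyme that makes dihydrouridine from uridine in the D-loop of tRNA, at positions 16 and 17. A tRNA folds so that its first bases pair with bases near its 3' end, and these paired strands form the acceptor stem. Most amino acids are served by families of near-identical tRNA genes, whose variants with the same anticodon are called isodecoders. Cuts in the D-loop, in the anticodon loop or between them release 5' tRFs and 5'-halves, and 5' fragments of glycine tRNA are among the most abundant tRFs in many human cells.

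The 2 sequences below show what sets the series apart, with the changed base in capitals.
tRF-27-P4R8YP9LON3: gcatGggtggttcagtggtagaattct
tRF-27-PNR8YP9LON3: gcatTggtggttcagtggtagaattct
Over these 27 bases the rows differ by a single substitution, T5G, written with the base of the PNR8YP row first and with positions counted from 1 at the 5' end. The 2 series are called GCATG and GCATT here, after their first 5 bases. The most abundant internal rows that carry the changed base start downstream of the 5' end.
tRF-22-93R918VBQ: tGggtggttcagtggtagaatt
tRF-23-IK9NJ4S2DE: atGggtggttcagtggtagaatt
All 9 of the 5' rows and all 29 internal rows reach position 17, so each covers positions 16 and 17 as counted along the sequence, which can differ from the standard tRNA numbering. All 9 of the 5' rows hold T at the first of these positions and none at the second.

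The first 20 bases of the GCATT series matched 2 tRNA genes among GENCODE transcripts of GRCh38, TRG-GCC2-1 (chromosome 1, 161523847 to 161523917, minus strand) and TRG-GCC2-4 (chromosome 16, 70779039 to 70779109, minus strand), both glycine tRNA genes with anticodon GCC, at the coordinates RefSeq gives on GRCh38.p14. Both matches lay within transcripts of other genes, FCGR2A and AC027281.2. Such a search misses tRNA genes outside the transcripts, for either series. The same search with GCATG found 0 matches in the 206694 transcripts, and no genome sequence was used, so its parent gene was not placed. Its longest row of 27 nt stops before the anticodon. The name of a Gly-GCC isodecoder therefore rests on the identity of the other bases with GCATT and was not checked against the anticodon. GCATT itself held 2 forms. Its rows of 33 nt end in G (tRF-33-PNR8YP9LON4VDP, 2716 counts) or C (tRF-33-PNR8YP9LON4VD5, 115 counts), and those of 35 nt in GCC or CCC. Identity over 27 bases cannot tell these forms apart.

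The data went against calling the GCATG form the minor one at lengths where both forms were listed. Over all lengths from 19 nt, GCATG did make up only 4.30% ± 2.21 of the counts of both 5' series in wild-type and 12.2% ± 1.90 in the knockout (SD, n = 3 each). At the lengths where both series had rows, 19 to 27 nt, GCATG made up 77.6% ± 3.50 of the counts in wild-type and 82.3% ± 2.06 in the knockout. In wild-type replicates 1 to 3 that share was 74.6%, 76.9% and 81.5% (95% Wilson intervals 71.0% to 77.9%, 70.1% to 82.5% and 77.3% to 85.0%). In knockout replicates 1 to 3 it was 83.7%, 79.9% and 83.2% (81.1% to 86.0%, 76.9% to 82.6% and 80.6% to 85.5%). The groups overlapped, since wild-type replicate 3 lay above knockout replicate 2. The lengths of 19 to 27 nt held a mean of only 89.7 of 7202 GCATT 5' counts per wild-type library. In the knockout they held 150 of 5203. These intervals and all others here cover counting error only, since no molecular identifiers are described for these reads.

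The rows of the 2 series covered different lengths. From 19 nt upwards, GCATG 5' rows reached 27 nt with 3009 counts, and no row of 28 nt or more is among the rows analysed here. GCATT 5' rows reached 37 nt with 37214 counts. At 27 nt GCATG had 1020 counts and GCATT 353, whereas at 28 nt GCATG had no row and GCATT had 7046 counts. Of 43 listed rows of any type that hold the changed base, 2 ran past position 27, both internal rows that start at the changed base, and they had 3 counts in all. These 2 rows lie outside the set. Among 5' rows of 27 nt with 50 or more counts there were 3, and the other 2 had a longer row with the same start. Of those 2, 1 is the GCATT row. What sets this limit at 27 nt was not tested. Every comparison over all lengths depends on it, as does the range of lengths that the series share.

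The count-weighted mean length of GCATG 5' fragments was 24.7 to 25.1 nt in wild-type and 25.3 to 25.4 nt in the knockout. For GCATT it was 30.6 to 30.8 nt and 30.9 to 31.0 nt. Within a library GCATG was shorter in 6 of 6 libraries, with a mean difference of -5.70 ± 0.115 nt (SD, n = 6). A two-sided exact sign-flip permutation over the 6 libraries gave p = 0.03125, adjusted p = 0.03125 over the 2 tests planned, the smallest value that 6 libraries allow. The outcome of this test was fixed by the lengths listed, since no GCATG row passes 27 nt and most GCATT counts lie beyond it. No conclusion is drawn from this p. Restricted to 19 to 27 nt the difference was -0.716 nt, again below 0 in 6 of 6 libraries. No GCATG row had the type 5'-half, a class of fragments cut in the anticodon loop, whereas 5'-halves made up 58.1% to 68.4% of GCATT counts. Among GCATT rows that label covered 31 to 34 nt, and the longer rows of 35 to 37 nt had the type 5'-tRF. The share of 0 sets no upper limit on GCATG 5'-halves, because no GCATG 5' row of such a length is among the rows analysed here. The difference between the series in 5'-halves is fixed by the lengths listed, and no p is given for it.

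As a share of each library, GCATG 5' rows took 1.42%, 0.845% and 1.69% of all counts in wild-type replicates 1 to 3 (95% Wilson intervals 1.29% to 1.55%, 0.713% to 1.00% and 1.52% to 1.89%). In knockout replicates 1 to 3 they took 3.53%, 3.89% and 3.21% (3.29% to 3.79%, 3.60% to 4.20% and 2.99% to 3.45%). Every knockout library lay above every wild-type library, and wild-type replicate 2 was the lowest. GCATT 5' rows of the same lengths, 19 to 27 nt, took 0.482%, 0.254% and 0.385% in wild-type and 0.687%, 0.978% and 0.650% in the knockout, also without overlap. Over all lengths GCATT 5' rows took 36.5%, 34.0% and 23.4% in wild-type and 26.7%, 23.4% and 27.3% in the knockout, with overlap.

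Of the 38 members, 12 passed the filter on low counts, 8 of 9 5' rows and 4 of 29 internal rows. In edgeR's quasi-likelihood fit over 235 fragments, 9 of the 12 were called higher and 0 lower at an adjusted p under 0.05, where 53.6% of all 235 fragments were called, 25.5% higher and 28.1% lower. With the libraries of both groups compared directly, 9 of the 12 did not overlap, all with the knockout higher, beside 28.1% of all fragments in that direction and 58.7% in either. The median log2 fold change of the 12 was 1.41, beside -0.01 for all fragments tested. Nothing is read from these counts, because the set was chosen on the same contrast. Of the 12 tested members, 4 reached the filter's level in all wild-type libraries and 4 in at most 1 of them, so that these last could enter the fit only by being high in the knockout. Without knockout replicate 1, 6 of the 11 members tested were called higher, beside 45 of all 247 fragments tested. Without wild-type replicate 3, the calls were 9 of 14 members, beside 84 of all 270 fragments.

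The longest 5' row, tRF-27-P4R8YP9LON3, was counted 175, 39 and 110 times in wild-type replicates 1 to 3, against 235, 233 and 228 times in knockout replicates 1 to 3. As CPM, which divides counts by the library total scaled with the trimmed mean of M-values, this was 6016, 2590 and 5241 in wild-type and 11561, 13773 and 9850 in the knockout. The knockout libraries all lay above the wild-type ones and wild-type replicate 2 was the lowest. Its log2 fold change, knockout minus wild-type, was 1.33 (SE 0.322). The GCATT row of the same length, tRF-27-PNR8YP9LON3, had 3163, 930 and 1429 CPM in wild-type and 3395, 4552 and 3068 in the knockout, where wild-type replicate 1 overlapped the knockout. Its log2 fold change was 0.94 with a standard error of 0.393 and an edgeR adjusted p = 0.0622. Without wild-type replicate 1 it was 1.63 (edgeR adjusted p = 0.00225), and without wild-type replicate 2 it was 0.58 (edgeR adjusted p = 0.225).

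The row of 25 nt, tRF-25-P4R8YP9LON, ends 2 bases earlier. It had 3197, 2590 and 4002 CPM in wild-type and 12693, 12000 and 10499 CPM in the knockout, from 93, 39 and 84 against 258, 203 and 243 counts. This was the widest separation among the 5' rows tested, with a log2 fold change of 1.84 (SE 0.261). The matching GCATT row, tRF-25-PNR8YP9LON, had 963, 531 and 953 CPM in wild-type and 1574, 1655 and 1469 in the knockout. The groups did not overlap there either, with a log2 fold change of 0.90 with a standard error of 0.313 and an edgeR adjusted p = 0.0313, and it passed the threshold in 6 of 12 alternative settings.

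Between these lengths, tRF-26-P4R8YP9LOND had 1925, 1196 and 2001 CPM in wild-type and 5559, 3961 and 5228 CPM in the knockout. Its log2 fold change was 1.51 (SE 0.284). The GCATT row tRF-26-PNR8YP9LOND had 584, 664 and 619 CPM in wild-type and 1574, 2424 and 1555 CPM in the knockout. That row rose by a log2 fold change of 1.56 with a standard error of 0.319 and an edgeR adjusted p = 0.00249. At 26 nt the values of the 2 series were close, and at 25 nt that of GCATG was larger. The difference between the series in their log2 fold change was not tested.

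One base further along, the direction in GCATT was the opposite. Its row of 28 nt, tRF-28-PNR8YP9LOND5, had 92061, 83422 and 42879 CPM in wild-type and 37439, 29911 and 40827 CPM in the knockout, a log2 fold change of -1.01 with a standard error of 0.350 and an edgeR adjusted p = 0.0304, a call that 7 of 13 alternative settings ended. GCATG has no row at that length to set beside it.

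At matched lengths the share of GCATG among the 2 rows was read in each library. At 27 nt it was 65.5%, 73.6% and 78.6% of the counts of both rows in wild-type and 77.3%, 75.2% and 76.3% in the knockout. For 26 nt the values were 76.7%, 64.3% and 76.4% in wild-type and 77.9%, 62.0% and 77.1% in the knockout. The 25 nt rows gave 76.9%, 83.0% and 80.8% in wild-type and 89.0%, 87.9% and 87.7% in the knockout. At 26 and 27 nt the groups overlapped, and at 25 nt they did not. From 19 to 24 nt GCATT had 6 to 19 counts per length in all libraries together, too few to compare shares by library.

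The 5' rows of 23 and 24 nt were also higher in the knockout. The row of 24 nt, tRF-24-P4R8YP9LH7, had 37, 6 and 25 counts in wild-type and 52, 51 and 65 in the knockout, a log2 fold change of 1.48 (SE 0.353) without overlap. For 23 nt, tRF-23-P4R8YP9LD6 had 18, 6 and 8 counts against 30, 18 and 23, with a log2 fold change of 1.29 (SE 0.359) from a row that reached the filter's level in 1 wild-type library. In CPM both rows were higher in every knockout library than in any wild-type library.

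From 22 nt downwards the libraries of the 2 groups overlapped. The row of 22 nt, tRF-22-P4R8YP9LL, had 26, 6 and 13 counts in wild-type and 17, 19 and 28 in the knockout, with a log2 fold change of 0.67 (SE 0.366), which was 1.04 without wild-type replicate 1 and 0.40 without wild-type replicate 2. The row of 21 nt, tRF-21-P4R8YP9L0, was the 1 5' member not tested, with 15, 0 and 5 against 4, 7 and 9 counts. The row of 20 nt, tRF-20-P4R8YP9L, had 24, 13 and 7 against 15, 12 and 13 counts and a log2 fold change of -0.01 (SE 0.409). Neither these values nor those of the next row separated the groups.

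The shortest 5' member, tRF-19-P4R8YPJZ, had 20, 6 and 18 counts in wild-type and 11, 14 and 11 in the knockout, with a log2 fold change of -0.13 (SE 0.400). Just outside the length limit, tRF-18-P4R8YP04 had 8, 6 and 6 against 6, 4 and 9 counts. The signs of the values at 19 and 20 nt change with the setting.

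Within the GCATG 5' series the rows of 19 to 22 nt made up 18.3%, 18.8% and 13.8% of counts in wild-type and 6.39%, 8.33% and 8.23% in the knockout. In counts these were 85, 25 and 43 against 47, 52 and 61. The 25 nt row made up 20.04%, 29.3% and 26.9% in wild-type and 35.1%, 32.5% and 32.8% in the knockout. The 27 nt row took 37.7%, 29.3% and 35.3% in wild-type and 31.97%, 37.3% and 30.8% in the knockout. The first 2 of these shares did not overlap between groups and the third did. These lengths were chosen after the values were seen, with the cut at 22 nt placed where the single rows begin to overlap. The shares are therefore a description only.

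The 29 internal members hold 915 counts and start at position 2, 3 or 4 of the same sequence. Summed, they took 0.488%, 0.292% and 0.564% of each library in wild-type replicates 1 to 3 (95% Wilson intervals 0.419% to 0.570%, 0.219% to 0.390% and 0.466% to 0.683%). In knockout replicates 1 to 3 they took 1.12%, 1.02% and 0.902% (0.990% to 1.28%, 0.872% to 1.18% and 0.788% to 1.03%). All knockout libraries lay above all wild-type libraries. The internal GCATT rows cut to the same 3' limit were 23 with 137 counts, so that GCATG made up 76.7% to 86.0% of both in wild-type and 88.6% to 91.1% in the knockout.

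The most abundant internal row, tRF-22-93R918VBQ, runs from position 4 to 25. It had 54, 10 and 41 counts in wild-type and 82, 54 and 73 in the knockout, or 1856, 664 and 1953 CPM against 4034, 3192 and 3154. The groups did not overlap, with a log2 fold change of 1.17 (SE 0.350).

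Starting 1 base earlier, tRF-23-IK9NJ4S2DE runs from 3 to 25 and ends at the same place. It had 16, 3 and 6 counts in wild-type and 45, 37 and 39 in the knockout, or 550, 199 and 286 CPM against 2214, 2187 and 1685. At a log2 fold change of 2.43 (SE 0.378) this was the largest difference among the 12 tested members. The rows tRF-24-J87383RPEE (2 to 25) and tRF-25-IK9NJ4S2I7 (3 to 27) differed by 1.88 (SE 0.440) and 1.76 (SE 0.471) on the log2 scale, from at most 6 counts in any wild-type library and 10 to 20 in the knockout. Before scaling, these last 3 rows were under the filter's level (510 CPM) in every wild-type library.

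The other 25 internal members had 1 to 54 counts each over the 6 libraries and 351 together, and 14 of them had under 10. Summed, they took 0.247%, 0.178% and 0.255% of the counts in wild-type and 0.365%, 0.299% and 0.308% in the knockout. The groups did not overlap in these sums, but the rows went both ways: the mean share of the library was higher in the knockout for 14 of the 25 and lower for 11. Among the lower ones, chosen after their values were seen, tRF-23-93R918VB05 (4 to 26) had 17, 9 and 5 counts in wild-type against 9, 5 and 9, and tRF-24-93R918VBK3 (4 to 27) had 16, 5 and 9 against 5, 4 and 7.

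Internal fragments shared the position 25 as an end with the 5' series. Over all libraries 55.6% of internal counts ended at 25 and 13.7% at 27, beside 30.6% and 33.9% of 5' counts. The internal GCATT rows, with 137 counts, also ended most often at 25 (38.7%), and 30.7% ended at 27. By library, GCATG fragments ending at 25 were 46.9%, 32.6% and 49.0% of internal counts in wild-type and 59.0%, 64.4% and 60.1% in the knockout.

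The starts of the internal fragments also differed between the groups, a description chosen after the values were seen. Fragments starting at position 3 made up 16.9%, 17.4% and 19.2% of internal counts in wild-type and 40.6%, 41.1% and 36.5% in the knockout, from 27, 8 and 20 against 95, 67 and 76 counts. Those starting at position 4 made up 70.6%, 65.2% and 72.1% in wild-type and 49.1%, 46.0% and 52.9% in the knockout. Neither share overlapped between groups. Without tRF-23-IK9NJ4S2DE the mean share starting at 3 was 11.2% ± 3.35 in wild-type and 24.1% ± 2.29 in the knockout (SD, n = 3 each). Of the internal GCATT counts over all libraries, 29.9% started at 3 and 50.4% at 4.

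The other strand of the acceptor stem was read from 3' tRFs, which the choice of members did not use. Rows ending in the reverse complement of the first 7 bases, then any base, then CCA, the sequence added to the 3' end of every tRNA, are shown with the base that faces position 5 in capitals.
tRF-17-8SP6X52: tcccggccCatgcacca
tRF-17-8SPOX52: tcccggccAatgcacca
The first can pair with GCATG and the second with GCATT. Each form had 3 rows, of 16 to 18 nt. The form that pairs with GCATG had 667 counts and the other 168, so that it made up 76.7%, 82.8% and 79.4% of both in wild-type and 87.1%, 85.3% and 75.4% in the knockout. These shares overlapped between groups. Whether other tRNAs share either 3' end was not tested.

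All 3 of the 3' rows that can pair with GCATG fell in the knockout, as did most 3' tRFs tested. Of 41 tested 3' tRFs of any tRNA, 35 were called lower and 0 higher, with a median log2 fold change of -1.52, a larger drop than that of any of these 3 rows. The row tRF-17-8SP6X52 had 2888, 2790 and 3287 CPM in wild-type and 2066, 1537 and 1771 CPM in the knockout, a log2 fold change of -0.73 with a standard error of 0.249 and an edgeR adjusted p = 0.0291. For tRF-18-YR6RIFD2 the log2 fold change was -0.79 with a standard error of 0.277 and an edgeR adjusted p = 0.0316, and for tRF-16-K8KQP1B it was -1.31 with a standard error of 0.338 and an edgeR adjusted p = 0.00825. Each of the 3 was lower without overlap between groups, beside 30.6% of all 235 fragments and 90.2% of the 41 3' tRFs, and 28.1% of all fragments were called lower. Of the other form 1 of 3 rows could be tested, tRF-17-8SPOX52, with a log2 fold change of -1.06 with a standard error of 0.493 and an edgeR adjusted p = 0.0892. Leaving out 1 library gave -1.53 (without knockout replicate 3) to -0.63 (without knockout replicate 2) for that row. The calls at 17 and 18 nt ended in 9 and 10 of 12 alternative settings, that at 16 nt in 2 of 12, and the sign changed in none of these.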

How the data were processed

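Per the series' design text the authors assigned reads to tRNA with MINTmap, while the submitters' processing notes name cutadapt, FastQC, DESeq2 and GRCh38 (hg38), with no versions. The deposited values are raw read counts per fragment, 1 column per library, and were used as they stand. All 3443 identifiers were decoded to 3443 different sequences. Low rows were removed with filterByExpr of edgeR 4.0.16 (minimum count 10). Library totals over all rows were scaled by trimmed means of M-values (TMM), and the rest were tested in R 4.3.3 with edgeR's quasi-likelihood test, two-sided, with Benjamini-Hochberg adjustment over all 235. A standard error is the log2 fold change divided by the root of F. The test was checked on simulated counts. Shares have 95% Wilson intervals (scipy 1.17.1). The members and lists were chosen with earlier results of these data known. Named were all tested members, the longest and shortest of the 5' rows and the most abundant internal row, with GCATT rows of the same length. The row of 21 nt, further GCATT rows and the 3' rows are also named, as is tRF-18-P4R8YP04 from outside the set. The untested internal rows tRF-23-93R918VB05 and tRF-24-93R918VBK3 were named after their values were seen. Alternatives were other scalings, filters, DESeq2 1.42.0, a replicate block, other length ranges and leaving out each library.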

Additional observations from a re-analysis of the deposited data

How the results depend on the processing

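Over 12 tested members and 147 alternative values, 127 kept direction and side of the threshold, 8 kept direction but no longer passed and 12 changed sign. With 50 or more counts in 3 libraries, 5 of the 5 members tested were called higher, in place of 9 of 12. Leaving out 1 library gave 6 to 9 members called higher, of 11 to 14 tested. No member was called lower in any setting run, and nothing is read from this, since the set was chosen as higher in the knockout. All fragments called higher numbered 60 of 235 tested, or 45 to 84 of 247 to 281 tested leaving out 1 library. With 50 or more counts in 3 libraries they numbered 21 of 66 tested. Those called lower numbered 66, and 31 with DESeq2's Wald test, 42 with no filter, 17 with 50 or more counts in 3 libraries, and 28 to 75 leaving out 1 library (28 without knockout replicate 1). The log2 value of tRF-20-P4R8YP9L, -0.01, became 0.11 with DESeq2 size factors, 0.0509 with library totals and 0.12 with DESeq2's Wald test, and -0.28 to 0.24 leaving out 1 library. That of tRF-19-P4R8YPJZ ran from -0.41 to 0.12 leaving out 1 library. With DESeq2 size factors the median of all fragments moved from -0.01 to 0.10.

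Of the 3' rows, tRF-17-8SP6X52 was -0.62 with DESeq2 size factors, -0.62 with the Wald test, -0.75 with no filter and -0.85 to -0.57 leaving out 1 library. tRF-18-YR6RIFD2 was -0.69, -0.69 and -0.81 in these 3 settings, -0.77 with library totals, and -1.01 to -0.59 leaving out 1 library. tRF-16-K8KQP1B was -1.22 with the Wald test and -1.32 with no filter. None of these values passed the threshold except within the leave-out ranges. The GCATG share of both series went from 4.30% to 77.6% at shared lengths and 75.1% with 3 lengths weighted equally in wild-type, and from 12.2% to 82.3% and 78.9% in knockout libraries. Leaving out 1 library, the mean length difference was -5.73 to -5.66 nt, and that in 5'-halves -63.9 to -61.9 points, which is 0 at shared lengths. With 5 libraries the smallest exact p is 0.0625. The cause of these changes was not tested.

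Same-numbered libraries deviated together with correlations of 0.371, -0.0703 and 0.107, so the numbers were not taken as pairs, and not every library correlated best with its own number. With the replicate block 9 members were called higher and 0 lower, and 60 and 56 of all fragments. Under the block tRF-20-P4R8YP9L was 0.0537, tRF-17-8SP6X52 -0.74 and tRF-18-YR6RIFD2 -0.78, the last 2 with edgeR adjusted p = 0.0510.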

Other observations

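Below the length limit of the set, 5' rows of 16 to 18 nt with the GCATG start had 121 counts over the 6 libraries, beside 51 for the other series. The GCATG rows made up 71.4% to 76.2% of both in the wild-type and 63.2% to 75.7% in the knockout, and the groups overlapped.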
